A study of Homo sapiens with 2 samples.

Results

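The collagen chain genes and the genes of the enzymes that modify collagen were compared between 2 expression arrays of PLC8024, a human hepatocellular carcinoma (HCC) cell line. Members were taken by symbol: a chain name such as COL1A1, or a fixed list of lysyl oxidase, lysyl hydroxylase and prolyl hydroxylase genes. The rule uses no measured value, but the group was picked with earlier results of these data known. The rule found 145 probe sets of 58 genes (43 collagen chain genes with 112 probe sets, and 15 enzyme genes with 33), out of 19775 genes with probe sets that name 1 gene. One array came from CD133-negative PLC8024 cells carrying an empty lentiviral vector and the other from CD133-negative PLC8024 cells carrying lentiviral miR-130b, which 1 of its labels calls a transfection. In both cultures the CD133-negative state was set by flow sorting, and the labels give neither a time after transduction nor the number of clones or cultures. Each condition has 1 array, so no difference below has a replicate error and none was tested. The comparison asks which of these transcripts differ when miR-130b is overexpressed.

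Collagens are extracellular proteins built of chains wound into a triple helix, and a chain carries a repeat in which glycine recurs at a fixed spacing. In the endoplasmic reticulum prolyl 4-hydroxylase stabilises the helix, lysyl hydroxylases prepare lysines for sugar addition and cross-linking, and the prolyl 3-hydroxylase complex, of which CRTAP is a part, modifies single prolines and acts in folding. Outside the cell, lysyl oxidases oxidise lysines and so cross-link fibrils. In liver, fibrillar collagen is mainly a product of activated stellate cells and fibroblasts, and tumour cells can also make collagens and their cross-linking enzymes.

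The mature strands of the overexpressed microRNA are shown because they are the only difference between the arrays that the labels describe; the labels do not name the strand. They come from RefSeq (GRCh38.p14, plus strand, chr22:21653354-21653375 for the 3p strand and chr22:21653316-21653336 for the 5p strand). Capitals mark the seed, bases 2 to 8.
miR-130b-3p: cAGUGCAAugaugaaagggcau
miR-130b-5p: aCUCUUUCccuguugcacuac

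In all, 5 collagen chain genes and 2 lysyl oxidase genes were lower with miR-130b by 1.5-fold or more. None of the 10 intracellular modifying enzyme genes was, by the probe set that stands for it, but PLOD2 and P3H2 each had another probe set that was. Levels are log2 RMA values. Every signed difference is the log2 value with miR-130b minus that with the empty vector. A gene was taken as measured when 1 of its probe sets reached 4.88 in at least 1 array, which is the median over the non-control probe sets. Where several did, the one with the highest mean over both arrays stands for the gene. This floor is a rule of brightness, not a detection call. It left 32 of the 58 genes, with 62 probe sets. Among these 32, 7 passed 1.5-fold downwards with miR-130b (21.9%) and 0 passed it upwards. The other 25 differed by -0.40 to 0.29. Over all 13260 measured genes the same rule gave 2.68% lower and 0.294% higher. At 2-fold, 6 of the 32 were lower and 0 higher, against 1.52% and 0% of all measured genes. Over all 58 genes with no floor, the count at 1.5-fold was again 7 lower and 0 higher (12.1%), against 1.91% of 19775 genes. By probe set, 15 of 62 were at least 1.5-fold lower (24.2%), against 2.83% of all measured probe sets that name 1 gene. Of the 7 lower genes, 2 (COL12A1 and COL2A1) lay below the floor with miR-130b, as did several of the 15 probe sets. They entered these counts only through the empty vector array, where they are high. The median of the 32 genes was -0.08, against 0.03 over all measured genes. A few genes thus had large differences while the middle of the group stayed near 0.

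**Figure D1:**
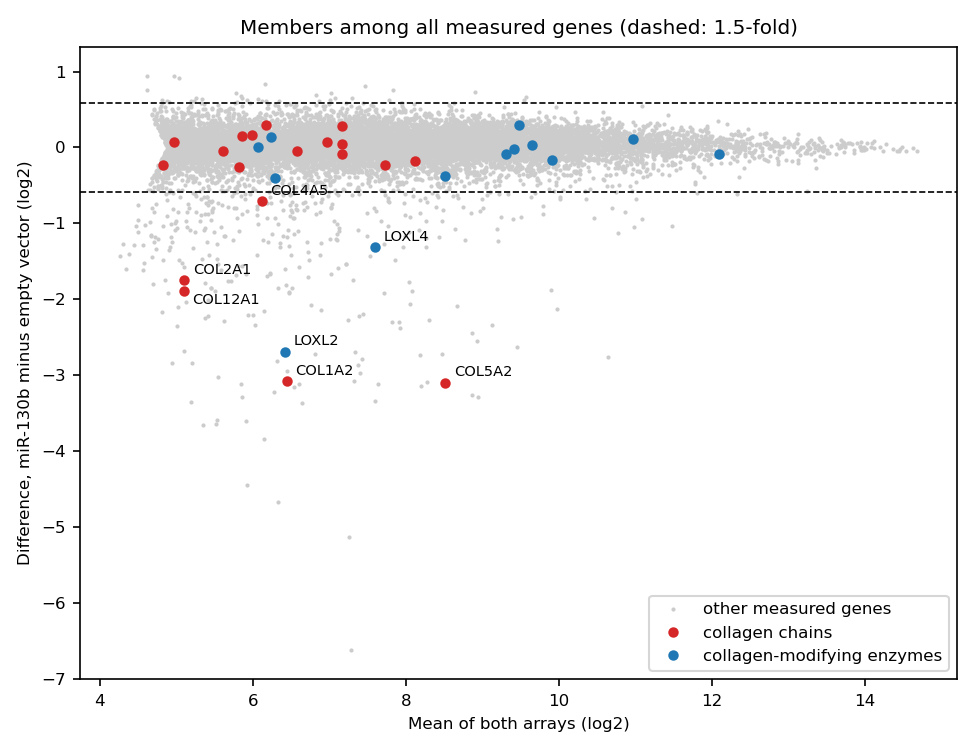
Difference between the arrays (vertical axis, log2, miR-130b value less empty vector value) against the mean of both arrays (horizontal axis, log2) for every measured gene, 1 point per gene, with the dashed lines at 1.5-fold. The 7 named genes lie below the lower line, from COL4A5 at -0.70 to COL5A2 at -3.10, and no collagen or modifying enzyme gene lies above the upper line.

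With no replicate, the sole spread at hand is that between probe sets of a gene on the same arrays. It does not measure the error of a difference between arrays or cultures. This spread was 0.202 on the log2 scale (pooled SD over 6047 genes with at least 2 measured probe sets), but 0.519 over the 21 such genes described here. Probe sets of a gene lay at least 1 log2 unit apart for 3 of these 21 genes (14.3%), against 1.24% of the 6047. The 3 genes were LOXL2, COL1A1 and P3H2.

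Among the fibrillar collagens, which form the banded fibrils of connective tissue, 7 of 11 genes were measured. Of these 7, 3 were at least 1.5-fold lower, against 2.68% of all measured genes. COL5A2, which encodes a chain of the fibril-regulating type V collagen, stood at 10.07 with the empty vector and 6.97 with miR-130b in one probe set, and at 9.13 and 6.16 in the other. The differences of -3.10 and -2.97 make it 8.57-fold lower by its brighter probe set. It ranked 22 of 13260 by decrease and was above the floor in both arrays.

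COL1A2 encodes the alpha 2 chain of type I collagen, the main collagen of scar and bone. Its brighter probe set stood at 7.98 with the empty vector and 4.90 with miR-130b, a difference of -3.08, or 8.46-fold. Its other measured probe set stood at 7.10 and 3.85, a difference of -3.25. A further COL1A2 probe set lay below the floor in both arrays, at 4.75 and 4.70. Both measured probe sets carry the suffix _s_at, which marks probes that may match more than 1 transcript. With miR-130b they stood near or below the floor, at 4.90 and 3.85, where RMA compresses folds.

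COL1A1, the gene of the alpha 1 chain that pairs with COL1A2 in type I collagen, gave no common direction. Its brightest probe set, with the cross-hybridisation suffix _x_at, was almost level, at 7.20 with the empty vector and 7.12 with miR-130b. The 3 dimmer measured probe sets stood at 5.49 and 5.87, at 5.41 and 4.54, and at 5.08 and 3.40, so 1 was higher by 0.38 and 2 were lower, by -0.88 and -1.68. Both lower ones were below the floor with miR-130b, so they counted as measured only through the empty vector array. The remaining probe set lay below the floor, at 3.36 and 3.44. All 5 carry a suffix, so no probe set of this gene is free of that limit.

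COL2A1, the cartilage fibril collagen gene, was lower in both of its probe sets. One stood at 5.97 with the empty vector and 4.23 with miR-130b, the other at 5.03 and 3.69, with differences of -1.74 and -1.33. It reached the floor only in the empty vector array, so it entered the count through the array where it is high.

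Chains related to COL5A2 gave other values. COL5A3, another type V chain, was higher by 0.29 and 0.15 in its 2 probe sets, and COL5A1 was below the floor in all 3 of its probe sets, none above 4.63. COL3A1, the type III collagen gene and the neighbour of COL5A2 on chromosome 2 in the RefSeq gene table, was below the floor in all 5, with differences from -0.36 to -0.05. COL27A1, a fibrillar chain of cartilage, stood at 7.83 with the empty vector and 7.61 with miR-130b in its brightest probe set, a difference of -0.23. Its 3 other measured probe sets differed by -0.62 (6.64 and 6.02), -0.27 and 0.03, so 1 of 4 passed 1.5-fold. COL11A2, a chain of the type XI cartilage collagen, stood at 7.14 and 7.18 in its brighter probe set and differed by -0.12 in the other. COL11A1 and COL24A1 lay below the floor.

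Type IV collagens form the network of basement membranes. Of the 6 chain genes, only COL4A5 was measured, in 1 of its 2 probe sets, at 6.47 with the empty vector and 5.77 with miR-130b. The difference of -0.70 is 1.63-fold. Its head-to-head partner on chromosome X, COL4A6, was below the floor in all 3 probe sets, with differences from -0.43 to 0.23. COL4A1 and COL4A2, the widespread basement membrane chains, were below the floor in all 4 of their probe sets. COL4A3 and COL4A4 were below it in 10.

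**Figure D2:**
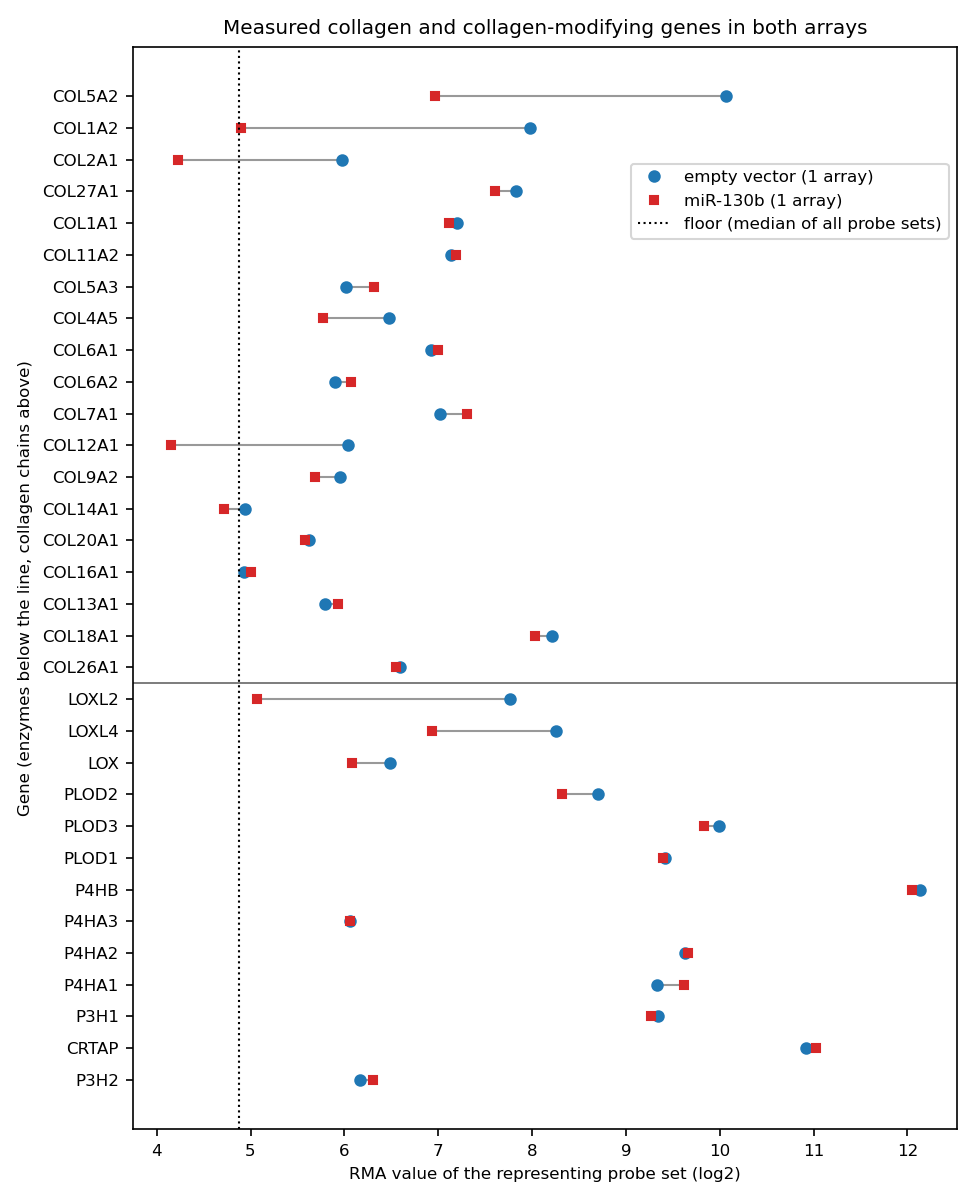
RMA value (horizontal axis, log2) of the probe set that stands for each of the 32 measured genes, with the empty vector array as a circle and the miR-130b array as a square, 1 array each, and the floor of 4.88 as a dotted line. The long gaps belong to COL5A2, COL1A2, COL2A1, COL12A1, LOXL2 and LOXL4, and most other pairs of symbols nearly coincide.

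Fibril-associated collagens with interrupted helices (FACIT) coat fibrils and link them to other matrix. COL12A1, a FACIT gene of dense connective tissue, was at 6.04 with the empty vector and 4.15 with miR-130b in the only 1 of its 5 probe sets that reached the floor. The 4 others lay below the floor in both arrays and differed by -0.48, -0.37, -0.24 and 0.13. The difference of -1.89 therefore rests on 1 probe set and on the empty vector array, and the level with miR-130b lies below the floor, where RMA compresses the fold. COL9A2, a chain of the cartilage FACIT type IX, stood at 5.95 and 5.69 in its brighter probe set and had the opposite sign in the other, with differences of -0.26 and 0.26. COL20A1 was nearly level, at 5.62 and 5.58. COL14A1 and COL16A1, which regulate or attach to fibrils, differed by -0.23 and 0.08. COL9A1, COL9A3, COL19A1, COL21A1 and COL22A1 lay below the floor.

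The remaining collagen classes held no gene beyond 1.5-fold. COL18A1, the basement membrane multiplexin whose C-terminal fragment is endostatin, stood at 8.21 with the empty vector and 8.03 with miR-130b, and its other probe set differed by -0.33. COL7A1, which forms the anchoring fibrils of skin, stood at 7.02 and 7.30, and its other probe set differed by -0.16. COL6A1 and COL6A2 are adjacent genes of the beaded filament collagen VI on chromosome 21. COL6A1 stood at 6.93 and 6.998 in its brightest probe set. COL6A2 stood at 5.90 and 6.07, with -0.29 in its other probe set. COL13A1, a transmembrane collagen, stood at 5.79 and 5.94, and COL26A1 at 6.60 and 6.55. COL6A3, COL6A5, COL6A6, COL8A1, COL8A2, COL10A1, COL15A1, COL23A1, COL25A1 and COL28A1 lay below the floor in both arrays. In all, 24 of the 43 collagen genes were below it, and 44.2% were measured, against 67.1% of all genes with a single-gene probe set. The 83 probe sets below the floor differed by -0.48 to 0.38 with a median of 0.00, and 39 were lower, 36 higher and the rest equal.

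**Figure D3:**
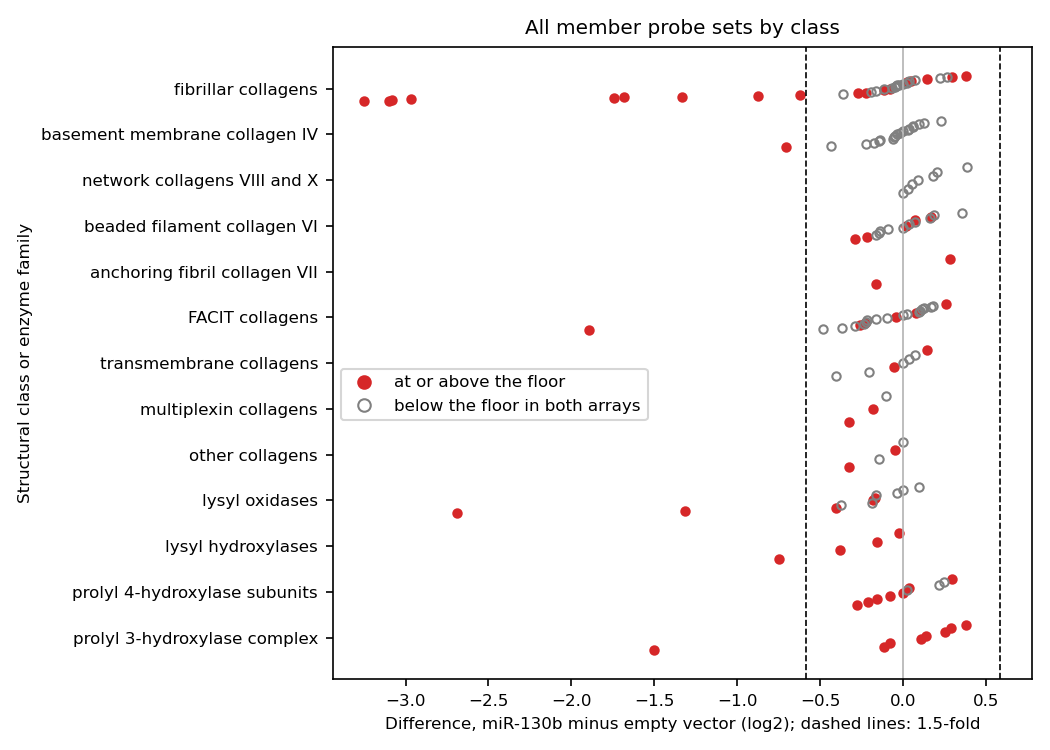
Difference (horizontal axis, log2, miR-130b minus empty vector) of each of the 145 probe sets, 1 point per probe set, by structural class or enzyme family, with filled points at or above the floor, open points below it in both arrays, and dashed lines at 1.5-fold. Points left of the lower line appear among fibrillar collagens, collagen IV, FACIT collagens, lysyl oxidases, lysyl hydroxylases and the prolyl 3-hydroxylase complex, and none lies right of the upper line.

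Lysyl oxidases, the extracellular cross-linking enzymes, were lower in all 3 genes measured of 5, where 5556 of all 13260 measured genes were lower. Of these 3 lysyl oxidase genes, 2 passed 1.5-fold, against 2.68% of all measured genes. LOXL2, which cross-links collagen in basement membrane and fibrotic tissue, stood at 7.76 with the empty vector and 5.07 with miR-130b in its brightest probe set. This is a difference of -2.69, or 6.46-fold, but its other measured probe set stood at 5.39 and 5.22, a difference of only -0.17. A pair of LOXL2 probe sets below the floor differed by -0.19 and -0.04, and all 4 carry the suffix _s_at. The LOXL2 difference therefore rests on 1 of 4 probe sets. LOXL4, a related oxidase, stood at 8.25 and 6.94, a difference of -1.32 or 2.49-fold, in the only measured 1 of its 2 probe sets. LOX, the founding member, stood at 6.49 and 6.08 in one probe set and at 5.98 and 5.80 in the other, with differences of -0.40 and -0.18. LOXL1 and LOXL3 lay below the floor, with -0.37 and 0.09.

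The enzymes that act inside the endoplasmic reticulum showed no gene beyond 1.5-fold by its representing probe set, over 10 genes in 3 families. P4HB, the protein disulphide isomerase that is also the beta subunit of prolyl 4-hydroxylase, stood at 12.13 with the empty vector and 12.05 with miR-130b. Of the catalytic subunit genes, P4HA1 stood at 9.33 and 9.62, P4HA2 at 9.63 and 9.66, and P4HA3 at 6.06 in both arrays. P4HA1 was thus the highest of the enzyme genes by difference, at 0.29. PLOD1, a lysyl hydroxylase gene, stood at 9.42 and 9.40. PLOD3, which also adds sugars to hydroxylysine, stood at 9.99 and 9.83. P3H1, a prolyl 3-hydroxylase, stood at 9.35 and 9.26. Its partner CRTAP stood at 10.92 and 11.03 in its brightest probe set and differed by -0.11 to 0.38 over all 5.

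PLOD2 and P3H2 each had 1 probe set past 1.5-fold, 2 of the 19 measured probe sets in these families, against the 2.83% of all measured probe sets given above. PLOD2, the lysyl hydroxylase that modifies the telopeptides and so sets the kind of cross-link, stood at 8.70 with the empty vector and 8.32 with miR-130b in its brighter probe set, a difference of -0.38. Its other probe set stood at 7.60 and 6.85, a difference of -0.75. P3H2, a prolyl 3-hydroxylase that acts on basement membrane collagen, stood at 6.17 and 6.31 in one probe set, higher by 0.14. In the other it stood at 6.84 and 5.34, a difference of -1.51, so its direction depends on the probe set used.

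**Figure D4:**
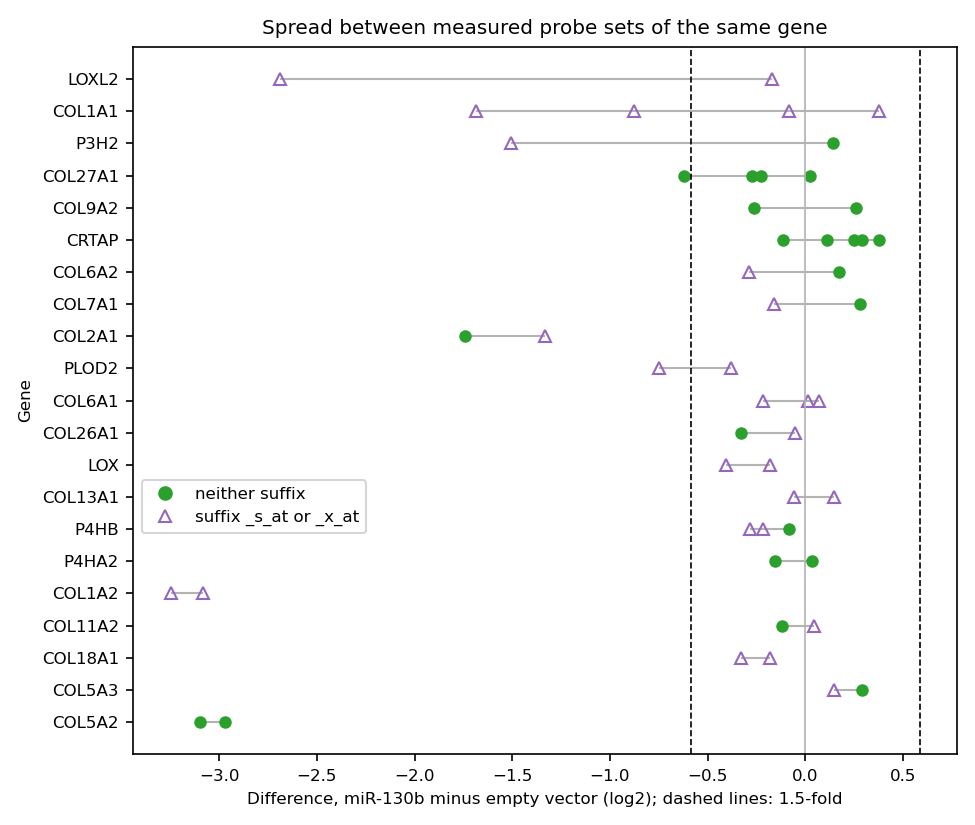
Difference (horizontal axis, log2, miR-130b minus empty vector) of every measured probe set for the 21 genes with at least 2, ordered by the gap between their lowest and highest probe set, with triangles for the suffixes _s_at and _x_at, circles for other probe sets, and dashed lines at 1.5-fold. COL5A2, COL1A2 and COL2A1 lie wholly left of the lower line, whereas LOXL2, COL1A1 and P3H2 span more than 1 log2 unit.

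Of the 21 genes with several measured probe sets, 9 had all of them lower, 1 had all higher (COL5A3) and 11 had both signs. The same count was not made over all 6047 such genes, so these numbers have no background to be set against. Suffixed probe sets made up 53.2% of the measured probe sets here and 39.7% of all measured probe sets that name 1 gene. Of the 145 probe sets, 9 held exactly the same value in both arrays (6.21%), against 4.20% of all non-control probe sets.

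The start regions of the lower genes are shown from RefSeq (GRCh38.p14), so that these genes can be compared in sequence. Promoter entries were found for 44 of the 58 genes, among them 3 of the 7 lower ones. Each window has 300 bases, 5′ to 3′ on the gene's strand, at chr6:75206004-75206303 (minus strand) for COL12A1, chrX:108439588-108439887 (plus strand) for COL4A5 and chr10:98268145-98268444 (minus strand) for LOXL4. Capitals mark matches on either strand to the motif CCAAT, the GC box core GGGCGG, the TATA box TATAAA and the AP-1 element TGANTCA, and no matches overlap in these windows.
COL12A1: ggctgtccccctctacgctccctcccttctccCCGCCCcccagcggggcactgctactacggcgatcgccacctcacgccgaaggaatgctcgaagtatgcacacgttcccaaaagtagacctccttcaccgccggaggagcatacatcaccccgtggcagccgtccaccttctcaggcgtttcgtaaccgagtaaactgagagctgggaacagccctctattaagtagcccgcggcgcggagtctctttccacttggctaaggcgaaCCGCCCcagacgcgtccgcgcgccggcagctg
COL4A5: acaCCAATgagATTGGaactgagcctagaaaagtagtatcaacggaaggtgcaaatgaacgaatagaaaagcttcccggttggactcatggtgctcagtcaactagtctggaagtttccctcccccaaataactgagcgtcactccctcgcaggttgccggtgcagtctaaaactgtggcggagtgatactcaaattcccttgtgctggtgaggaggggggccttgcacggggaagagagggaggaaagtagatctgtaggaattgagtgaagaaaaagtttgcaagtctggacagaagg
LOXL4: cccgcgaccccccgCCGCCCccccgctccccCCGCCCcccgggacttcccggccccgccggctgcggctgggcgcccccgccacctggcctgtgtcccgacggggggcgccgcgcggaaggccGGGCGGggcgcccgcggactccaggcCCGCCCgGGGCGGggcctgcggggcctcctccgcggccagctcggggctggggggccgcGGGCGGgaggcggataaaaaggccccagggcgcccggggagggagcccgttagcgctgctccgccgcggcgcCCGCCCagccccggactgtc

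The 3 windows had no common motif. GGGCGG occurred 7 times in the LOXL4 window, 2 times in the COL12A1 window and 0 times in the COL4A5 window, which held CCAAT 2 times. GGGCGG was present in 45.0% of 35116 promoter windows in the table and in 34 of the 60 windows of these genes. CCAAT was present in 34.6% of all and in 18 of the 60. TATAAA was in 11.5% of all windows and in 9 of the 60, and TGANTCA in 7.71% of all and in 1 of the 60. Neither was in the 3 windows shown. Some genes have several windows, so the 60 are not independent.

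Genes that handle collagen outside this set were read from lists of known roles. The lists were chosen with earlier results of these data known, so the shares below only describe them. Of 18 measured genes of collagen processing and secretion, 2 were at least 1.5-fold lower (11.1%, against 2.68% of all measured genes) and 0 higher, with a median of 0.02. SERPINH1, the collagen-specific chaperone HSP47, stood at 7.40 with the empty vector and 6.03 with miR-130b, a difference of -1.37. SPARC, a collagen-binding matrix protein gene, stood at 6.27 and 4.80, a difference of -1.47. SPARC was below the floor with miR-130b, so it entered the count through the empty vector array. Another SPARC probe set lay below the floor in both arrays, at 4.04 and 3.79, a difference of -0.25. The probe sets used for SERPINH1 and SPARC both carry the suffix _s_at. BMP1, the procollagen C-proteinase, had -0.42 in its brightest probe set. Its dimmest measured probe set passed 1.5-fold, at 5.79 and 5.20, a difference of -0.59, and the others measured differed by -0.30 to -0.05. The highest difference of the list was 0.27, for TMEM38B, an ion channel gene of the endoplasmic reticulum.

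Of 14 measured genes of collagen degradation and reception, 4 were at least 1.5-fold lower (28.6%, against the same 2.68%) and 0 higher, with a median of -0.04. TIMP1, an inhibitor of matrix metalloproteinases, stood at 7.05 with the empty vector and 5.40 with miR-130b, a difference of -1.66. TIMP3, another such inhibitor, had -0.84 in its brightest probe set. TIMP2, a further inhibitor gene, had -0.32 in its brightest probe set, and -0.65 and -0.95 in the 2 dimmer ones. These 2 stood at 5.48 and 5.36 with the empty vector and at 4.82 and 4.40 with miR-130b. They were thus below the floor with miR-130b and counted as measured only through the empty vector array. The collagen-binding integrin genes ITGA1 and ITGA2 differed by -1.08 and -1.02, the latter below the floor in the miR-130b array at 4.08. Every measured probe set of their partner ITGB1 was lower with miR-130b, though none by 1.5-fold. The differences were -0.05, -0.34 and -0.42, listed from bright to dim.

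Markers of other cells were read beside these results. Of 10 fibroblast and stellate cell markers, 5 were measured and none differed by 1.5-fold. The largest differences were 0.24 for THY1, 0.18 for DES and 0.15 for RGS5. All 5 lay near the floor, from 4.84 (DES) to 5.44 (PDGFRB) with the empty vector, where RMA compresses folds. DES reached the floor only with miR-130b, at 5.02. The summed linear level of the 5 was 184.0 with the empty vector and 194.7 with miR-130b. Being near-floor signal, this sum cannot show whether such markers held steady. PDGFRA, LUM, ACTA2, FAP and LRAT were below the floor in both arrays, and PDGFRB stood at 5.44 and 5.36. Of 5 endothelial markers, 2 were measured, PECAM1 and TEK. PECAM1 stood at 8.51 with the empty vector and 8.72 with miR-130b in its brightest probe set, a difference of 0.21. Its other measured probe sets differed by 0.05, -0.15 and -0.24. TEK differed by 0.16. Of 4 leukocyte markers with values, LYZ alone was measured, with a difference of -0.32 in its brighter probe set and of -1.72 (5.76 and 4.04) in the other. All 7 hepatocyte markers with values were measured, with SERPINA1 at 14.07 and 14.16 and FGB at 13.44 and 13.45. The differences were -3.34 for TTR, -1.03 for ALB (-1.56 and -2.38 in its other measured probe sets) and -0.57 for AFP. The planned lists also held CD68 for leukocytes and HNF4A for hepatocytes, which gave no values here. The gene of the sort marker, PROM1, stood at 9.19 and 6.07, so transcripts of the marker were measured in the empty vector array of cells labelled CD133-negative. In bulk RNA, fewer cells that make a transcript and less of it per cell cannot be told apart. The ratio of 3′ to 5′ control probe sets was 1.95 for ACTB with the empty vector and 2.41 with miR-130b, and 1.37 and 1.52 for GAPDH. The part of PROM1-expressing cells and of this ratio in the collagen differences was not tested.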

How the data were processed

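The authors deposited a table of log2 expression values for 54675 probe sets, 1 value per array, and the submitters' processing notes name RMA, with no version given. The settings of RMA and the arrays it was run on are not stated in those notes. Of 54613 non-control probe sets, 41091 named 1 gene in GEO's platform annotation, 1801 named several and 11721 none. Probe sets that name several genes were left out. All 58 members matched RefSeq by Entrez identifier, with 0 changes of symbol. The log2 difference was computed per probe set. Genes below the floor of 4.88 in both arrays counted as not measured, and folds of 1.5 and 2 are rules of size. The members and gene lists were chosen with earlier results of these data known. The text names every member and gives both levels for those beyond 1.5-fold in a measured probe set and for the 3 brightest of each class. List genes beyond 1.5-fold or among the 3 largest differences are named; TMEM38B, TIMP2, ITGB1, PDGFRB, SERPINA1 and FGB were chosen after their values were seen. With 1 array per group no test was possible, and the number of arrays limits the precision. The computation was tested on simulated data. Alternatives were a floor at the 75th percentile of all values (6.98) or none, averaging the probe sets of a gene, leaving out suffixed probe sets and loess centring (span 0.3). Python 3.11.15, numpy 2.4.6, pandas 2.3.3, scipy 1.17.1, statsmodels 0.14.6 and matplotlib 3.10.9 were used.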

Additional observations from a re-analysis of the deposited data

How the results depend on the processing

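The 7 lower genes stayed at least 1.5-fold lower under every alternative that kept them measured: no floor, the mean of probe sets and loess centring kept all 7. Much of this was fixed by the method. Under a changed floor the same probe set stood for each gene kept, so its value was the same. COL12A1, LOXL4 and COL4A5 have 1 measured probe set each, so averaging could not change them. The floor at the 75th percentile kept 4 of the 7 measured and left 2 of 8 collagen genes lower, where 5 of 19 were lower as reported. Of all genes measured at that floor, 2.32% were lower. Leaving out suffixed probe sets kept 4 of the 7, since COL1A2, LOXL2 and COL4A5 then had no measured probe set. It left 3 of 11 collagen genes and 1 of 8 enzyme genes lower, against 2.58% of all genes. No setting gave a member at least 1.5-fold higher. With the mean of probe sets LOXL2 differed by -1.43 instead of -2.69 and COL2A1 by -1.54 instead of -1.74. In that setting P3H2 joined the lower enzyme genes, 3 of 13, against 2.60% of all genes. The median of the collagen genes was -0.08 as reported, -0.05 with no floor, -0.13 with the higher floor, -0.19 with the mean of probe sets, -0.23 without suffixed probe sets and -0.12 with loess centring. That of the enzyme genes ran from -0.16 with the mean of probe sets to -0.01 without suffixed probe sets. No paired analysis was possible because each condition has 1 array.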

Other observations

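Antisense transcripts named after these genes, which the choice by symbol leaves out, differed little. LOXL2-AS1 stood at 5.78 with the empty vector and 6.02 with miR-130b, a difference of 0.24, while the brightest LOXL2 probe set differed by -2.69. COL18A1-AS1 differed by 0.02, LOXL1-AS1 by -0.03 and P4HA3-AS1 by 0.25, all below the floor in both arrays. Among neighbouring genes of the set, COL4A1 with COL4A2, COL4A3 with COL4A4, COL6A5 with COL6A6 and COL9A1 with COL19A1 were below the floor as pairs, COL6A1 and COL6A2 were both measured, and only in COL3A1 with COL5A2 and COL4A6 with COL4A5 was 1 gene measured and the other not.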
